A study of Mus musculus with 10 samples.

Results

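Ptpn22 encodes the tyrosine phosphatase Pep, and the mice of this study carry either its wild-type form (WT) or a form in which the serine Ser452 is replaced by alanine (S452A). The 8 genes described here are Ptpn22, its relatives Ptpn12 and Ptpn18, and the partners Pstpip1, Pstpip2, Csk, Pag1 and Traf3. They were chosen by name, each matched exactly 1 row of a table of 55487 gene rows, and all 8 were among the 13930 genes tested. Mice of both genotypes were given MC38 colon carcinoma cells, a mouse line, when 8 weeks old, and the tumours were taken 18 days later. CD8+ T cells were sorted after collagenase digestion and their RNA was sequenced in bulk, with 5 WT and 5 S452A libraries, each labelled as a separate mouse. The title and sample labels write S452A, whereas the series' design text gives another position for the change. The labels do not give the background strain, sex or sort markers, nor whether mice were littermates.

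The PEST phosphatases are named for tails rich in proline, glutamate, serine and threonine that follow the catalytic domain and bind other proteins. In T cells Pep works beside Csk, the kinase that puts Src family kinases into their closed form, and removes the activating phosphates of Lck and Zap70, which lowers signalling from the antigen receptor. The membrane adaptor Pag1 brings Csk to the plasma membrane. The adaptors Pstpip1 and Pstpip2 bind the tail ends of PEST phosphatases and link them to membranes and the actin skeleton. In macrophages Pep has been tied to Traf3, a ubiquitin ligase of Toll-like receptor and interferon signalling.

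The change that defines the S452A mice and the catalytic centre shared by the 3 phosphatases are shown in the coding strand of GENCODE M21 transcripts (GRCm38). The codon of Ser452 in Ptpn22 lies in exon 13 of 21, at chr3:103885888-103885890 on the plus strand, in the tail and outside the catalytic signature. It is in capitals in the 63 bases of chr3:103885858-103885920.
Ptpn22 serine codon: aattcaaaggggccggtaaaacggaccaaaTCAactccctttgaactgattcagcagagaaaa

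The catalytic signature of tyrosine phosphatases runs from a histidine and the catalytic cysteine to an arginine. Its codons are in capitals below, at residues 226 to 233 of Pep, 230 to 237 of the Ptpn12 protein and 228 to 235 of the Ptpn18 protein.
Ptpn22 signature: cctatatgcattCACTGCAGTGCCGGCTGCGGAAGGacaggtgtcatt
Ptpn12 signature: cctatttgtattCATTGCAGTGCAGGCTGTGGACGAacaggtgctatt
Ptpn18 signature: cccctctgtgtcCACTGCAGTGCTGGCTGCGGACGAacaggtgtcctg

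All 8 residues of the signature are the same in the 3 proteins, while 19 of 24 bases are shared by Ptpn22 and Ptpn12 and 21 of 24 by Ptpn18 and either of them. In each gene these codons are split by the intron between exons 8 and 9. No transcript of another gene was near-identical to a transcript of any of the 8 genes (95% identity or more along 0.8 or more of the shorter one). Genes annotated within or across the 8 loci were low, the highest being Gm28417, opposite Ptpn18, at 2.32 to 6.52 TPM.

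The libraries labelled CD8+ T cells held little T cell RNA and much macrophage RNA in both genotypes, and every result below describes such mixed libraries. TPM (the abundance unit of the deposited table) corrects for gene length and gives every library the same sum, so levels of different genes can be set side by side, but sequencing depth is unknown. The 8 T cell markers (Cd8a, Cd8b1, Trac, Trbc1, Trbc2, Cd3g, Cd3e and Cd3d) summed to 12.1 to 126 TPM in WT and 14.96 to 135 TPM in S452A. The 8 macrophage markers (among them Apoe, C1qa, Csf1r and Lyz2) summed to 16486 to 23049 TPM and 17341 to 22930 TPM. Markers of B cells, NK cells and dendritic cells reached at most 20.5, 1.93 and 10.6 TPM in sum, neutrophil markers 65.6 TPM and epithelial tumour cell markers 5.22 TPM. The 6 fibroblast markers (Col1a1, Col1a2, Col3a1, Pdgfra, Dcn and Postn) summed to 161 to 316 TPM in WT and 72.5 to 222 TPM in S452A. The fibroblast mean was lower in S452A by 0.54 in log2(TPM + 1) (WT 4.61 ± 0.34 and S452A 4.08 ± 0.45 as mean ± SD, n = 5, by 2-sided exact permutation p = 0.0397, adjusted over 8 marker lists 0.317). In such bulk libraries, fewer cells of a type and less RNA per cell cannot be told apart.

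The order of levels placed Ptpn18 first and Ptpn22 near the bottom. Over the 10 libraries Ptpn18 averaged 162 TPM, Csk 90.5, Pstpip1 71.4, Traf3 32.6, Ptpn12 31.8, Pstpip2 17.1, Ptpn22 16.4 and Pag1 6.28 TPM. Among all tested genes these levels ran from the 93.5th percentile for Ptpn18 to the 58.0th for Ptpn22 and the 34.2nd for Pag1. Neighbours in this order were compared within libraries by a 2-sided exact sign-flip permutation test, adjusted over the 7 pairs. Traf3 and Ptpn12 did not differ beyond their spread (mean log2 difference 0.02, from -0.41 to 0.80, Traf3 higher in 3 of 10 libraries, adjusted p = 0.98). The same held for Pstpip2 and Ptpn22 (0.01, from -1.04 to 0.69, Pstpip2 higher in 7 of 10 libraries, adjusted p = 0.98). Csk lay above Pstpip1 in 9 of 10 libraries (0.34, adjusted p = 0.0109). The other 4 steps held in 10 of 10 libraries (adjusted p = 0.00342 each), and the widest, of 1.24, separated Ptpn22 from Pag1.

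**Figure D1:**
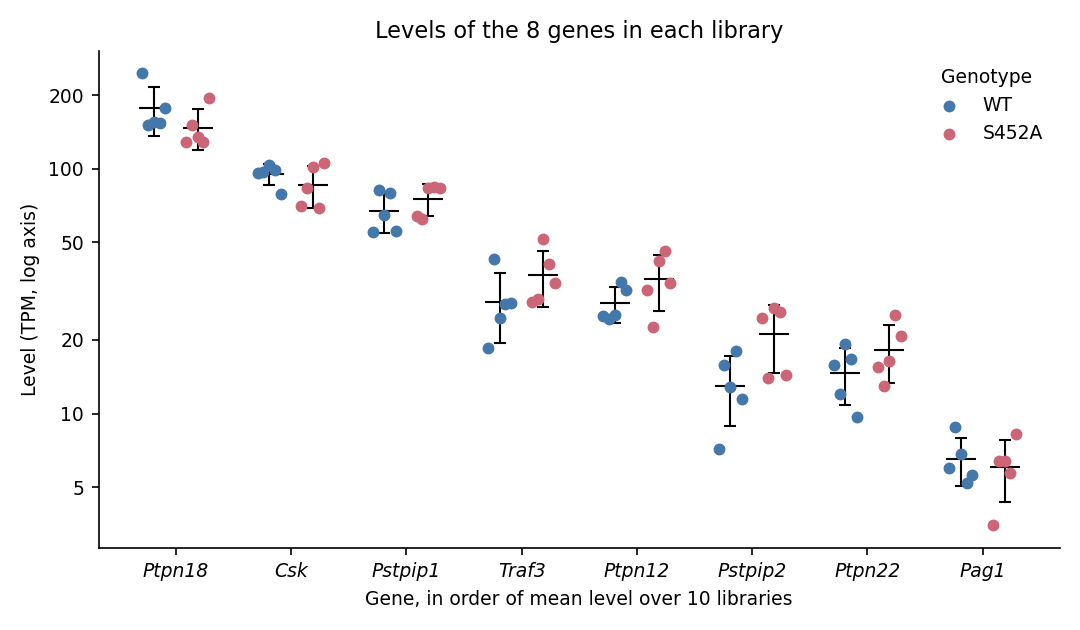
Level of each of the 8 genes in TPM on a log axis, with 1 point per library (WT blue, S452A red), the group mean as a dash and the SD as a bar (n = 5 per genotype). Ptpn18 lies highest and Pag1 lowest, and the WT and S452A points overlap for every gene.

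Among the 17 non-receptor tyrosine phosphatase genes examined, Ptpn18 ranked first, Ptpn12 the sixth and Ptpn22 the seventh by mean level. Ptpn6, encoding SHP-1, an inhibitory phosphatase of blood cells, followed Ptpn18 at 147 TPM, and Ptpn1 stood at 101.5 TPM. Ptpn22 lay between Ptpn12 and Ptpn7 (14.001 TPM), a phosphatase of blood cells that acts on MAP kinases. Of the combined TPM of the 3 PEST phosphatases, Ptpn22 made up 4.42 to 12.6% per library, Ptpn12 8.74 to 23.0% and Ptpn18 64.4 to 85.8%.

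None of the 8 genes passed the test between genotypes (limma on log2(TPM + 1), Benjamini-Hochberg adjusted p under 0.05 over all tested genes). Across the transcriptome 1 gene passed, or 0.00718% of those tested. At an unadjusted p under 0.05 there was 1 of the 8, Pstpip2, against 4.74% of all tested genes (2.01% higher and 2.73% lower in S452A). Under the alternatives this count ran from 0 to 2. It was 0 with the fibroblast marker mean as a covariate, an alternative chosen after values were seen, and without WT library 1 or S452A library 1, 3 or 4. It was 2 without S452A library 2 (Ptpn12 joined Pstpip2), WT library 2 (Traf3) or S452A library 5 (Ptpn18). No exact Wilcoxon rank-sum test of the 8 had an unadjusted p under 0.05. The libraries of the genotypes overlapped for all 8 genes, and they did not overlap for 0.646% of tested genes. The fitted difference, S452A minus WT, was above 0 for 5 of the 8 and for 46.6% of tested genes. The median difference was 0.23 over the 8 genes and -0.02 over all tested genes. The 8 are too few to call this particular to them.

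**Figure D2:**
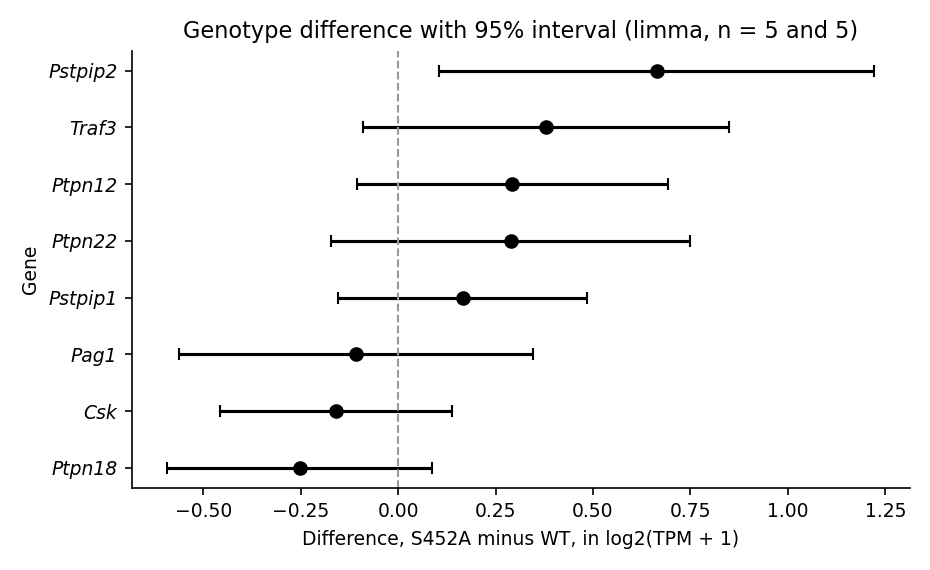
Difference between genotypes, S452A minus WT, in log2(TPM + 1) for each gene (point) with its 95% interval from limma (bar). The interval lies above 0 for Pstpip2 (0.10 to 1.22) and includes 0 for the other 7 genes.

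Ptpn22 (ENSMUSG00000027843.13, chr3:103859795-103912247, plus strand) was at 15.7, 12, 19.3, 16.7 and 9.68 TPM in WT libraries 1 to 5. The values of S452A libraries 1 to 5 were 15.5, 12.9, 16.4, 25.2 and 20.8 TPM. S452A libraries 4 and 5 lay above all WT libraries, and the other 3 fell within the WT range. The difference was 0.29 on the log2 scale (SE 0.21, 95% interval -0.17 to 0.75, limma adjusted p = 0.952, 2-sided exact permutation p = 0.238). It was 0.16 without WT library 5, 0.17 without S452A library 4 and 0.43 with the fibroblast marker mean as a covariate (limma adjusted p = 0.986, 0.9998 and 0.999). Without S452A library 2 it was 0.39 (limma adjusted p = 0.744). Since the table holds no reads, the codon in each library could not be read.

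Ptpn12 (ENSMUSG00000028771.13, chr5:20986645-21055911, minus strand) encodes PTP-PEST, a widely expressed phosphatase of the focal adhesion scaffold p130Cas and the kinase Pyk2. It was at 25.0, 24.3, 25.3, 34.3 and 32.0 TPM across the WT libraries and at 32.1, 22.6, 42.1, 46.0 and 34.2 TPM across those of S452A. S452A libraries 3 and 4 were above every WT library and S452A library 2 was below every WT library. The difference was 0.29 (SE 0.18, limma adjusted p = 0.952). Leaving out S452A library 4 gave 0.19, leaving out S452A library 2 gave 0.44 and the fibroblast marker mean as a covariate gave 0.08. None of these passed.

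Ptpn18 (ENSMUSG00000026126.15, chr1:34459762-34475733, plus strand) encodes PTP-HSCF, a shorter PEST phosphatase of haematopoietic cells. It stood at 245 TPM in WT library 1 and at 151, 155, 153 and 177 TPM in WT libraries 2 to 5. The S452A libraries had 129, 150.2, 134, 128 and 194 TPM. Apart from S452A library 5, the S452A libraries were all below the lowest WT library, S452A library 2 only narrowly (150.22 against 151.09 TPM). The difference was -0.25 (SE 0.16, limma adjusted p = 0.952, 2-sided exact permutation p = 0.183), -0.13 without WT library 1 and -0.31 with the fibroblast marker mean as a covariate (limma adjusted p = 0.999 for both). Without S452A library 5 it was -0.36 (limma adjusted p = 0.850).

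Pstpip1 (ENSMUSG00000032322.14, chr9:56089962-56128888, plus strand) encodes an F-BAR adaptor that brings PEST phosphatases to the Wiskott-Aldrich protein and also binds pyrin, a sensor of the inflammasome. It was at 55.1, 81.7, 64.8, 79.5 and 55.9 TPM across the WT libraries and at 63.9, 62.2, 83.3, 84.4 and 83.1 TPM across those of S452A. S452A libraries 3 to 5 lay just above the highest WT library. The difference was 0.17 (SE 0.15, limma adjusted p = 0.952), 0.10 without WT library 1 or WT library 5, and 0.07 with the fibroblast marker mean as a covariate. Without WT library 2 it was 0.24.

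Pstpip2 (ENSMUSG00000025429.9, chr18:77789914-77882879, plus strand) encodes a related F-BAR protein of myeloid cells that lacks the SH3 domain of Pstpip1, and whose loss in mice causes autoinflammatory bone disease. It was at 7.15, 15.7, 12.8, 18.0 and 11.4 TPM across the WT libraries and at 24.5, 13.97, 27.1, 26.0 and 14.3 TPM across those of S452A. S452A libraries 1, 3 and 4 were above all WT libraries, and S452A libraries 2 and 5 lay within the WT range. The means were 13.0 ± 4.15 and 21.2 ± 6.48 TPM (SD, n = 5), a log2 difference of 0.66 (SE 0.26, 95% interval 0.10 to 1.22, 1.58-fold). It had the smallest unadjusted p of the 8 genes (limma, 0.0238), but the limma adjusted p was 0.952 and the 2-sided exact permutation p was 0.0714. Of the spread of its log2 values over the 10 libraries, 39.1% lay between genotypes, against 3.26 to 23.2% in the other 7 genes. Such a share is above 0 for nearly any split into 5 and 5 libraries, so it is given as a description. With the fibroblast marker mean as a covariate the difference was 0.57 (limma adjusted p = 0.999).

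Csk (ENSMUSG00000032312.7, chr9:57626646-57653631, minus strand), the kinase that restrains Src family kinases, had the smallest spread of the 8 genes within genotypes (SD 0.22 in log2(TPM + 1), against 0.46 for Pstpip2, the largest). It was at 96.2, 97.4, 104, 98.9 and 79.2 TPM across the WT libraries and at 70.3, 83.2, 101, 69.5 and 105 TPM across those of S452A. S452A libraries 1 and 4 lay below every WT library and S452A library 5 above. The difference was -0.16 (SE 0.14, 95% interval -0.46 to 0.14, limma adjusted p = 0.952). Leaving out S452A library 1 or S452A library 4 gave -0.09, and leaving out S452A library 5 gave -0.24. The fibroblast marker mean as a covariate also gave -0.24, and none of these passed. Both ends of this interval lie inside a 2-fold change, which also holds for Ptpn22, Ptpn12, Ptpn18, Pstpip1, Pag1 and Traf3, and not for Pstpip2.

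Pag1 (ENSMUSG00000027508.15, chr3:9687479-9833679, minus strand), the membrane anchor of Csk, was the lowest of the group. It was at 6.02, 8.85, 6.84, 5.21 and 5.59 TPM across the WT libraries and at 3.50, 6.40, 6.40, 5.70 and 8.26 TPM across those of S452A. Apart from S452A library 1, which was lowest, the S452A libraries lay within the WT range. The difference was -0.11 (SE 0.21, limma adjusted p = 0.969) and 0.05 without S452A library 1. It was -0.0043 without WT library 2, -0.17 without WT library 4, -0.22 without S452A library 5 and -0.21 with the fibroblast marker mean as a covariate.

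Traf3 (ENSMUSG00000021277.16, chr12:111166370-111267153, plus strand) was at 18.5, 42.9, 24.6, 27.99 and 28.2 TPM across the WT libraries and at 28.6, 29.3, 51.5, 40.7 and 34.0 TPM across those of S452A. All 5 S452A libraries were above the WT median, and 1 of them was above all WT libraries. The difference was 0.38 (SE 0.22, limma adjusted p = 0.952, 2-sided exact permutation p = 0.167). It was 0.54 without WT library 2, 0.24 without WT library 1, 0.25 without S452A library 3 and 0.09 with the fibroblast marker mean as a covariate, without passing in any of these.

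The balance between 2 of the genes within a library was taken as the log2 ratio of their TPM + 1, and 6 such ratios were compared by 2-sided exact permutation (smallest possible p 0.00794), adjusted over the 6. Ptpn22 to Csk, the phosphatase and kinase that act together on Src family kinases, averaged -2.65 ± 0.25 over WT libraries and -2.20 ± 0.47 over S452A libraries (± SD, n = 5, by exact permutation p = 0.0952, adjusted 0.206). S452A library 4 had the highest value, -1.43, and WT library 2 the lowest, -2.92. The difference of 0.45 was 0.26 without S452A library 4. Pstpip1 to Pstpip2 was 2.32 ± 0.27 and 1.83 ± 0.44 (exact permutation p = 0.0794, adjusted 0.206), and S452A libraries 1, 3 and 4 lay lowest, at 1.35, 1.59 and 1.66. Without S452A library 5 this difference went from -0.50 to -0.66 and passed (adjusted exact permutation p = 0.0476). Ptpn12 to Ptpn18 was -2.59 ± 0.41 and -2.05 ± 0.52 (exact permutation p = 0.103, adjusted 0.206). For Ptpn22 to Ptpn12, Csk to Pag1 and Ptpn22 to Traf3 the differences were -0.005, -0.05 and -0.09 (adjusted exact permutation p = 0.976 each). The groups overlapped for all 6 ratios.

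The 8 genes were then set against the T cell and macrophage content of the libraries, with 16 correlations over the 10 libraries (permutation p, adjusted over the 16). None passed. Csk came nearest, with Pearson r = 0.677 to the T cell marker mean (permutation p = 0.0365, adjusted 0.584) and Spearman rho = 0.709 (permutation p = 0.0272, adjusted 0.436). After each genotype's mean was subtracted, r was 0.743. Csk was at 96.2 to 105 TPM in the 5 libraries with a T cell marker mean above 3. Of the other 5, WT library 2 had the lowest T cell mean (1.16) but 97.4 TPM of Csk, and the rest had 69.5 to 83.2 TPM. Without WT library 2, r was 0.901 and passed (adjusted exact permutation p = 0.0223), but that library was singled out after values were seen. Csk did not pass on leaving out any other library, and r was 0.576 without S452A library 1 (adjusted exact permutation p = 0.902). Without the 2 libraries farthest from the median T cell mean, r was 0.861, but these are WT library 2, singled out above, and S452A library 1.

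For Ptpn22, r to the T cell marker mean was 0.464 and rho 0.564 (permutation p = 0.177 and 0.0956, adjusted 0.854 and 0.606), and r was 0.386 without the 2 farthest libraries. S452A library 4, the highest in Ptpn22, had a T cell mean of 2.14, below the middle of the range, and without it r was 0.706 (exact permutation p = 0.0327, adjusted 0.262). For the other 6 genes r to the T cell mean ran from -0.128 (Pstpip2) to 0.265 (Pag1). Against the macrophage marker mean, which varied only between 9.96 and 10.4, r ran from -0.313 (Csk) to 0.366 (Ptpn12). All of these had adjusted permutation p of at least 0.854. Within a genotype, over 5 libraries each, r could differ. For Ptpn22 it was 0.901 in WT and 0.0364 in S452A to the T cell mean, and -0.808 and 0.657 to the macrophage mean. For Traf3 and the T cell mean it was -0.759 in WT and 0.700 in S452A. These values within genotypes were not tested.

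**Figure D3:**
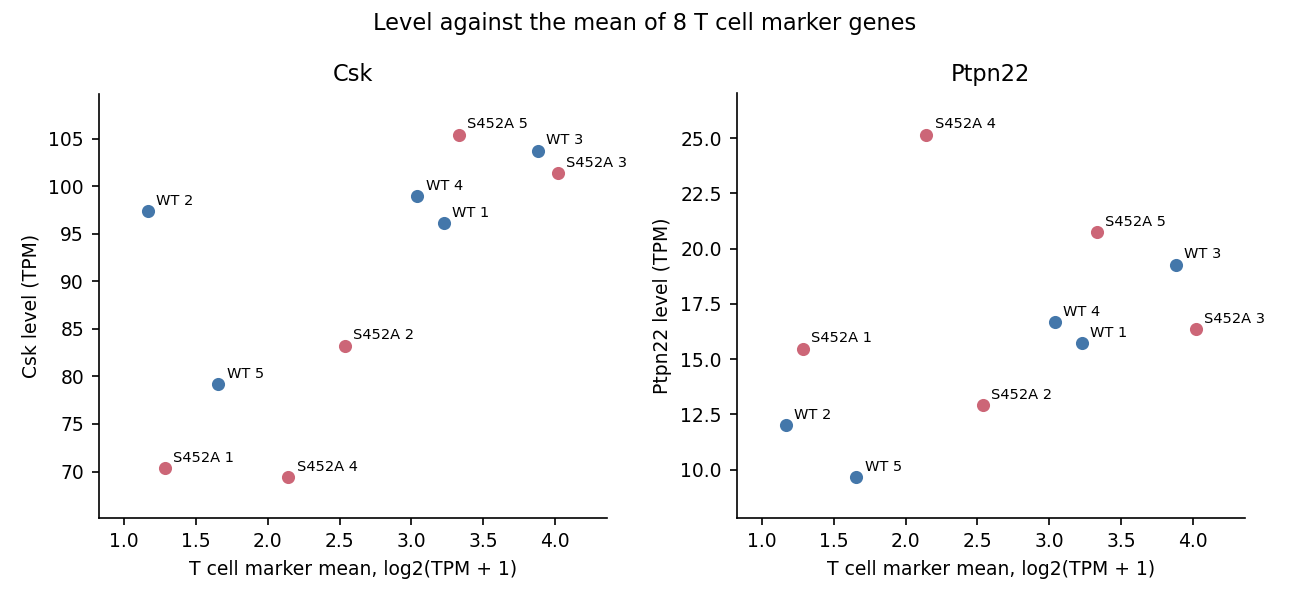
Level of Csk (left) and Ptpn22 (right) in TPM against the mean log2(TPM + 1) of 8 T cell marker genes, with 1 labelled point per library (WT blue, S452A red). Csk is high in the 5 libraries with a marker mean above 3 and in WT library 2, whereas the highest Ptpn22 level, in S452A library 4, comes with a marker mean of 2.14.

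Across mice, Ptpn18 and Pstpip2 ran in opposite directions. All 28 pairs of the 8 genes were examined after values were seen, and this was the only pair whose Pearson r passed over the 28 (r = -0.901, permutation p = 0.00043, adjusted 0.012). Spearman rho was -0.818 (permutation p = 0.00625, adjusted 0.124). WT library 1 had the most Ptpn18 (245 TPM) and the least Pstpip2 (7.15 TPM). S452A libraries 1, 3 and 4 had the least Ptpn18 (128 to 134 TPM) and the most Pstpip2 (24.5 to 27.1 TPM), somewhat apart from the rest. Among the other 7 libraries, set apart after values were seen, r was -0.841, given as a description. It was -0.922 without the 2 libraries farthest from the median of Ptpn18, and -0.886 after each genotype's mean was subtracted. Without WT library 1 it was -0.816 and did not pass over the 28 pairs (adjusted exact permutation p = 0.199). The part of other cells in this relation was not tested.

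**Figure D4:**
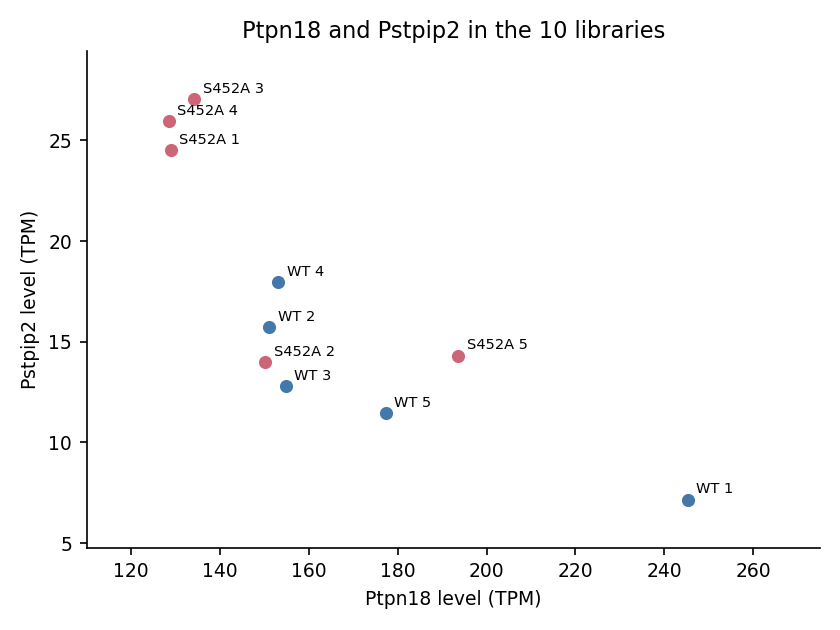
Level of Pstpip2 against that of Ptpn18, both in TPM on linear axes, with 1 labelled point per library (WT blue, S452A red). Pstpip2 is highest where Ptpn18 is lowest (S452A libraries 1, 3 and 4) and lowest where Ptpn18 is highest (WT library 1).

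Of the other pairs, Pstpip1 with Traf3 (r = 0.794, permutation p = 0.0055, adjusted 0.077, rho = 0.745) and Pstpip2 with Traf3 (r = 0.759, permutation p = 0.0106, adjusted 0.0988, rho = 0.709) came next without passing. Without the 2 farthest libraries r was 0.73 for the former and 0.387 for the latter. Pstpip2 with Ptpn12 had r = 0.699, Pstpip1 with Pstpip2 0.674 and Csk with its anchor Pag1 0.664 (adjusted permutation p = 0.165 each). Ptpn22 had no pair that passed. Its highest r was 0.523, with Pstpip1, and its r to Csk was 0.0514 (adjusted permutation p = 0.342 and 0.953). Its highest Spearman rho was 0.648, with Ptpn12 (permutation p = 0.0498, adjusted 0.184), followed by 0.624 with Pstpip1 (permutation p = 0.0592, adjusted 0.184).

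The genes whose pattern over the 10 libraries was most like that of Ptpn22 were Rbm28 (r = 0.953), Ube2o (0.936), Ankrd11 (0.895), Taf1 (0.876) and Ewsr1 (0.875), by Pearson r of log2(TPM + 1) among 11166 named genes. Rbm28 was at 25.9 to 45.6 TPM and Ewsr1, an RNA-binding protein gene, at 200.4 to 249 TPM. Nearest to Csk were Cxcr3 (r = 0.925), a chemokine receptor of effector T cells, at 1.34 to 6.05 TPM, and Mtrf1 (0.923). Nearest to Pstpip2 were Rasgrp1 (r = 0.985), a Ras activator, and Degs1 (0.956). Nearest to Pstpip1 were Ikbkb (r = 0.939), a kinase of NF-kB activation, and the integrin gene Itgb7 (0.934). Ptpn18 was most like Tle1 (r = 0.945) and Cst3 (0.943), the latter at 1285 to 1881 TPM. Ptpn12 was most like Dhrs9 (0.964) and Rbm7 (0.948), Pag1 like Tifa (0.965) and Tgfb3 (0.903), and Traf3 like Rnf115 (0.955) and Fbxo6 (0.953). These are descriptions, over libraries that share a fixed TPM total. They are the highest r among 11166 genes over only 10 libraries and were not tested.

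Around these 8 genes, 6 lists of relatives, targets and partners were examined, and 0 of their members passed in either direction (limma adjusted p at least 0.952). At an unadjusted limma p under 0.05 there were Ptpn9 and Ezr, against 4.74% of all tested genes. Among the listed genes, WT and S452A libraries were fully apart for Ptpn9 alone, against 0.646% of tested genes. Differences above 0 are counted for each list below, and made up 46.6% over all tested genes.

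**Figure D5:**
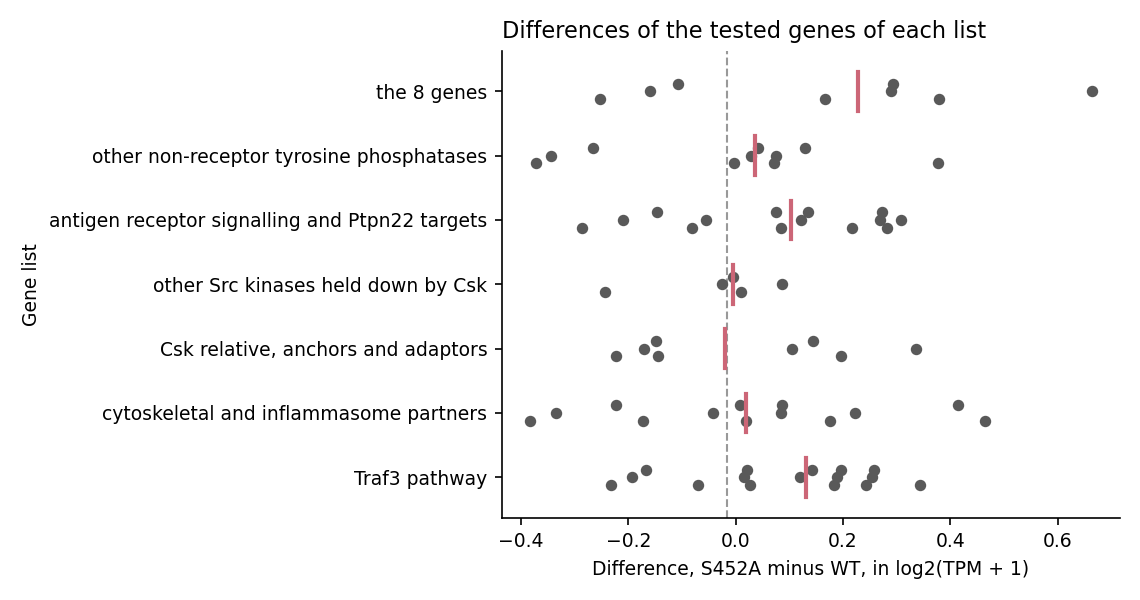
Difference between genotypes, S452A minus WT, in log2(TPM + 1) for the tested genes of each list (points), with the median of each list (red line) and of all tested genes (dashed line, -0.02). List medians lie between -0.02 and 0.13, and that of the 8 genes at 0.23.

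Of 14 other non-receptor tyrosine phosphatases, 10 were tested, with 6 differences above and 4 below 0 (median 0.04). Ptpn9, an intracellular phosphatase bound to secretory vesicles, was at 6.77, 8.44, 8.13, 7.50 and 6.42 TPM across the WT libraries and 12.5, 9.25, 10.6, 8.49 and 9.25 TPM across those of S452A. Every S452A library lay above every WT library, if by only 0.05 TPM between the closest, S452A library 4 and WT library 2. The difference was 0.38 (SE 0.15, limma adjusted p = 0.952). Ptpn7 differed by -0.34 and Ptpn21 by -0.37 (limma adjusted p = 0.952 each). Ptpn20 was listed at 0 in all libraries.

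Of 15 genes of antigen receptor signalling and Pep targets, 14 were tested, with 9 differences above and 5 below 0 (median 0.10). Lck, a main Pep target, averaged 9.35 ± 4.57 TPM over WT and 8.42 ± 7.67 TPM over S452A libraries (± SD, n = 5). Zap70 averaged 2.39 ± 1.88 and 2.37 ± 1.31 TPM. Lcp2, the adaptor SLP-76, differed by 0.27, Ubash3b, a phosphatase relative that acts on Syk and Zap70, by 0.27 and Cblb, a ubiquitin ligase, by 0.22 (limma adjusted p = 0.952 each).

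Of 6 other Src family kinases under Csk control, 5 were tested, with 2 differences above and 3 below 0 (median -0.004). Lyn, a kinase of B cells and myeloid cells, averaged 114 ± 8.73 TPM over WT and 113 ± 22.2 TPM over S452A libraries (± SD, n = 5). Lyn differed by -0.03 and Src by 0.09 (limma adjusted p = 0.992 and 0.974).

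Of 9 genes for a Csk relative, anchors and adaptors, 8 were tested, with 4 differences on either side of 0 (median -0.02). Ezr, encoding ezrin, which ties Pag1 to the actin skeleton through a scaffold protein, averaged 100.3 ± 17.0 TPM over WT and 127 ± 23.1 TPM over S452A libraries (± SD, n = 5). It differed by 0.34 (SE 0.15, limma adjusted p = 0.952), with 3 S452A libraries above all WT libraries. Matk, the Csk homologue, differed by -0.22 and Dok3, an inhibitory adaptor, by -0.17 (limma adjusted p at least 0.952).

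Of 14 cytoskeletal and inflammasome partners, 13 were tested, with 8 differences above and 5 below 0 (median 0.02). Mefv, encoding pyrin, which Pstpip1 binds, was at 43.5, 58.2, 56.3, 80.5 and 47.2 TPM across the WT libraries and 63.3, 59.2, 123, 94.4 and 63.8 TPM across those of S452A. All 5 S452A libraries were above the WT median, S452A libraries 3 and 4 were above every WT library, and the difference was 0.46 (SE 0.22, 95% interval -0.01 to 0.94, limma adjusted p = 0.952). The kinase gene Abl1 differed by -0.33 and the scaffold gene Cd2ap by -0.22 (limma adjusted p = 0.952 each).

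All 16 genes of the Traf3 pathway were tested, with 12 differences above and 4 below 0 (median 0.13). Of all tested genes, 46.6% had a difference above 0. For several of the 16, among them Traf1, Tbk1, Tank and Cd40, S452A libraries 3 and 4 alone lay above all WT libraries. The differences of the list are therefore not independent of each other. Traf1, a relative induced by NF-kB, averaged 249 ± 75.1 TPM over WT and 318 ± 99.4 TPM over S452A libraries (± SD, n = 5), a difference of 0.34 (SE 0.23). Tbk1, the kinase that Traf3 couples to interferon induction, differed by 0.26 and its substrate Irf3 by -0.23 (limma adjusted p = 0.952 for all 3). Map3k14, the kinase whose protein Traf3 keeps low, differed by -0.19 (limma adjusted p = 0.952) and was named after its value was seen.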

How the data were processed

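RNA came from cells sorted out of 10 tumours, 5 per genotype, and libraries that keep strand were prepared with an input of 40 ng, per the labels. The authors deposited TPM values for 55487 gene rows. Per the submitters' processing notes, STAR 2.7.9a, RSEM 1.3.0 and GRCm38.p6 were used, and neither the annotation nor the use of strand in counting is given there. Each deposited column sums to the same total within rounding, so depth is unknown and no counting interval can be given. Columns were matched to samples by description and groups by title. Of the gene rows, 55094 matched GENCODE M21 (GRCm38) by versioned identifier, all 8 genes included, and its transcripts gave positions and the printed sequences. Near-identical copies were searched with blastn 2.17.0.

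Genes that reached 1 TPM in 5 or more libraries were tested on log2(TPM + 1), which understates differences of low genes, in R 4.3.3 with limma 3.58.1 (eBayes with trend, 2-sided, genotype as the only term, threshold 0.05 after Benjamini-Hochberg adjustment). Ratios, neighbouring levels and marker means were compared by exact permutation and correlations with 100000 permutations, or exactly with fewer than 10 libraries, in Python 3.11.15, numpy 2.4.6 and scipy 1.17.1. The fit was tested on simulated data.

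The 8 genes, the 6 lists and the markers were chosen with earlier results of these data known. Named besides the 8 are the 3 genes of smallest unadjusted p per list (1 of them is not reported here), those that passed, and the genes of most similar pattern (5 for Ptpn22 and 2 for each of the others, without predicted and clone genes). Lck, Zap70 and phosphatases set beside Ptpn22 by level were named for their role or rank. Alternatives were other pseudocounts, filters and scalings, a block for mouse number, robust moderation, marker means as covariates, another test and threshold, and leaving out each library.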

Additional observations from a re-analysis of the deposited data

Results flagged for a closer look

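Ptpn18 in WT library 1 stood at 245 TPM, far from the other WT libraries, whose range was 151 to 177 TPM. The gap to its nearest neighbour was 0.721 of the group's whole range. It was the only such value among 28 groups of 5 examined (8 levels and 6 ratios in each genotype), where chance flags about 1 in 20. The same library had the lowest Pstpip2 (7.15 TPM), Traf3 (18.5 TPM) and Pstpip1 (55.1 TPM).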

How the results depend on the processing

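None of the 8 genes passed under any alternative, and the sign of 7 of them held throughout. Pag1 ran from -0.22 to 0.045 on leaving out 1 library and turned without S452A library 1. The count of genes passing stayed at 1, except that it was 0 with the exact Wilcoxon test (445 at an unadjusted p under 0.05), 0 with a filter of a mean of at least 5 TPM (455 at an unadjusted limma p under 0.05) and 0 to 1 on leaving out 1 library. It was 0 without any S452A library, where the gene that passed with all libraries, Gm36079, missed the filter (479 to 927 at an unadjusted limma p under 0.05). With 5 against 5 libraries the exact Wilcoxon p cannot fall below 0.00794. With only 90 of 13930 genes fully apart, that floor was too high for any gene to pass after adjustment. The count of 0 from that test therefore shows no dependence on the processing. Mouse numbers did not pair the libraries (correlations of same-numbered deviations -0.148 to 0.0743), and with the replicate block the count was 1, with Ptpn22 at 0.29 (limma adjusted p = 0.985) and Pstpip2 at 0.66 (limma adjusted p = 0.985). The fibroblast marker mean, added after values were seen, gave values nearer to 0 for Ptpn12 (0.08), Traf3 (0.09), Pstpip1 (0.07) and Pstpip2 (0.57) and farther from 0 for Ptpn22 (0.43), Ptpn18 (-0.31), Csk (-0.24) and Pag1 (-0.21). On leaving out 1 library, the ratio differences ran from 0.26 to 0.55 for Ptpn22 to Csk, 0.38 to 0.70 for Ptpn12 to Ptpn18, -0.18 to 0.13 for Ptpn22 to Ptpn12 (0.0047 with a pseudocount of 0.1), -0.31 to 0.078 for Ptpn22 to Traf3, -0.15 to 0.027 for Csk to Pag1 and -0.66 to -0.38 for Pstpip1 to Pstpip2, which passed without S452A library 5. The cause of these changes was not tested. Pearson r to the T cell mean then ran from 0.351 to 0.706 for Ptpn22, 0.576 to 0.901 for Csk, 0.104 to 0.461 for Ptpn18, -0.114 to 0.286 for Ptpn12, -0.0367 to 0.336 for Pstpip1, -0.439 to 0.0495 for Pstpip2, -0.125 to 0.708 for Pag1 and -0.526 to 0.109 for Traf3. To the macrophage mean it ran from -0.356 to 0.0111 for Ptpn22, -0.0978 to 0.196 for Ptpn18 and -0.298 to 0.170 for Pag1. The order of levels kept its calls with both other pseudocounts. The number of mice and the low T cell content limit what could be detected.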
